A study of Mus musculus with 2 samples.

Results

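Integrins are cell surface receptors made of an alpha and a beta subunit, and laminins are the trimeric glycoproteins of basement membranes to which several integrins bind. The genes described here are every integrin subunit gene and every laminin chain gene in the deposited tables, found by gene symbol: 18 Itga, 9 Itgb, 5 Lama, 3 Lamb and 3 Lamc genes, 38 of 30723 genes in all. Itgbl1, Itgb1bp1, Itgb1bp2 and Itgb3bp have similar symbols but encode no subunit and were left out. The symbols alone chose the members, and no measured value was used.

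RNA came from the mandibular prominence of mouse embryos, the swelling of the first pharyngeal arch that forms the lower jaw and the early tongue. The first group was Kif3a f/f ; Wnt1-Cre, in which a floxed gene for a kinesin-2 motor subunit needed to build primary cilia is deleted by a Cre driven from Wnt1, which is active in neural crest and not in the oral epithelium, vessels, blood or muscle precursors of the arch. The second group was labelled control, with no further genotype. Both were on a mixed CD1 background and labelled E11.5, and each group was 1 library from 10 pooled embryos. In the names given to the tables, the mutant is at day 11 and each library belongs to its own sequencing run, so the effects of genotype, run and a possible stage difference cannot be told apart. With 1 library per group there is no test between groups, and no p-value is given.

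Levels are FPKM, fragments per kilobase of transcript scaled to the number of mapped fragments, summed over the transcripts of a gene. Ranges in parentheses after a ratio are 95% exact binomial (Clopper-Pearson) counting intervals from approximate fragment numbers. They cover counting error only, not the spread between embryos or library preparations. The log2 ratio is mutant over control after 1 FPKM was added to each value, which understates differences of low genes. Kif3a stood at 5.39 FPKM in the mutant and 11.46 FPKM in the control, and Kif3a outside the neural crest is not deleted. Fragments on the listed transcripts, approximated from coverage, came to about 24500000 in the mutant and 24700000 in the control, and the totals that scaled the FPKM were not given. Genes whose FPKM averaged 1 or more numbered 12259 and had a median log2 ratio of -0.13, so a direction is read against this value. Intervals are set against 1, the ratio of equal FPKM in both libraries, and not against this median gene. A lower FPKM in the mutant was found for 8320 of them and a higher one for 3939. Counts of genes with a lower or higher FPKM below are read against these numbers. Past 2-fold on this scale lay 0.767% of them on the higher side and 1.36% on the lower side, and past 1.5-fold 2.76% on the higher and 5.57% on the lower side.

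Each alpha subunit pairs with a restricted set of beta subunits, and the pair decides the ligand: laminin, collagen, proteins with the arginine-glycine-aspartate (RGD) motif such as fibronectin, or counter-receptors on other cells. A laminin is built of an alpha, a beta and a gamma chain, of which the alpha chain carries the main receptor binding site. In the jaw primordium, laminins lie beneath the oral epithelium and around vessels, nerves and early muscle. Fibronectin and tenascin fill the mesenchyme between.

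Of the 38 genes, 21 passed the filter of a mean FPKM of 1 or more, namely 13 of 27 integrin genes and 8 of 11 laminin genes. Past 2-fold on the log2 scale lay 0 of these 21 on either side, where all genes gave 0.767% and 1.36%. Past 1.5-fold lay 1 on the higher side (Lama5), against 2.76% of all genes, and 2 on the lower side (Itga2b and Itgb3), against 5.57%. The laminin genes lay mostly above the median gene, 7 of 8, with a median log2 ratio of 0.22. With the dependence on transcript length described below removed, which sets the median of all genes to 0, this median was 0.06. Lama2 then lay below the median gene beside Lama4. The integrin genes were split, 6 above and 7 below, with a median of -0.18. Over all 38 genes with no filter, 18 had a higher FPKM in the mutant and 18 a lower one, while Itgax and Itgb2l were listed at 0 in both. No such count without the filter was made for all genes. Over the filter, 13 of the 21 members were higher and 8 lower, and 3939 of the 12259 genes were higher and 8320 lower.

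**Figure D1:**
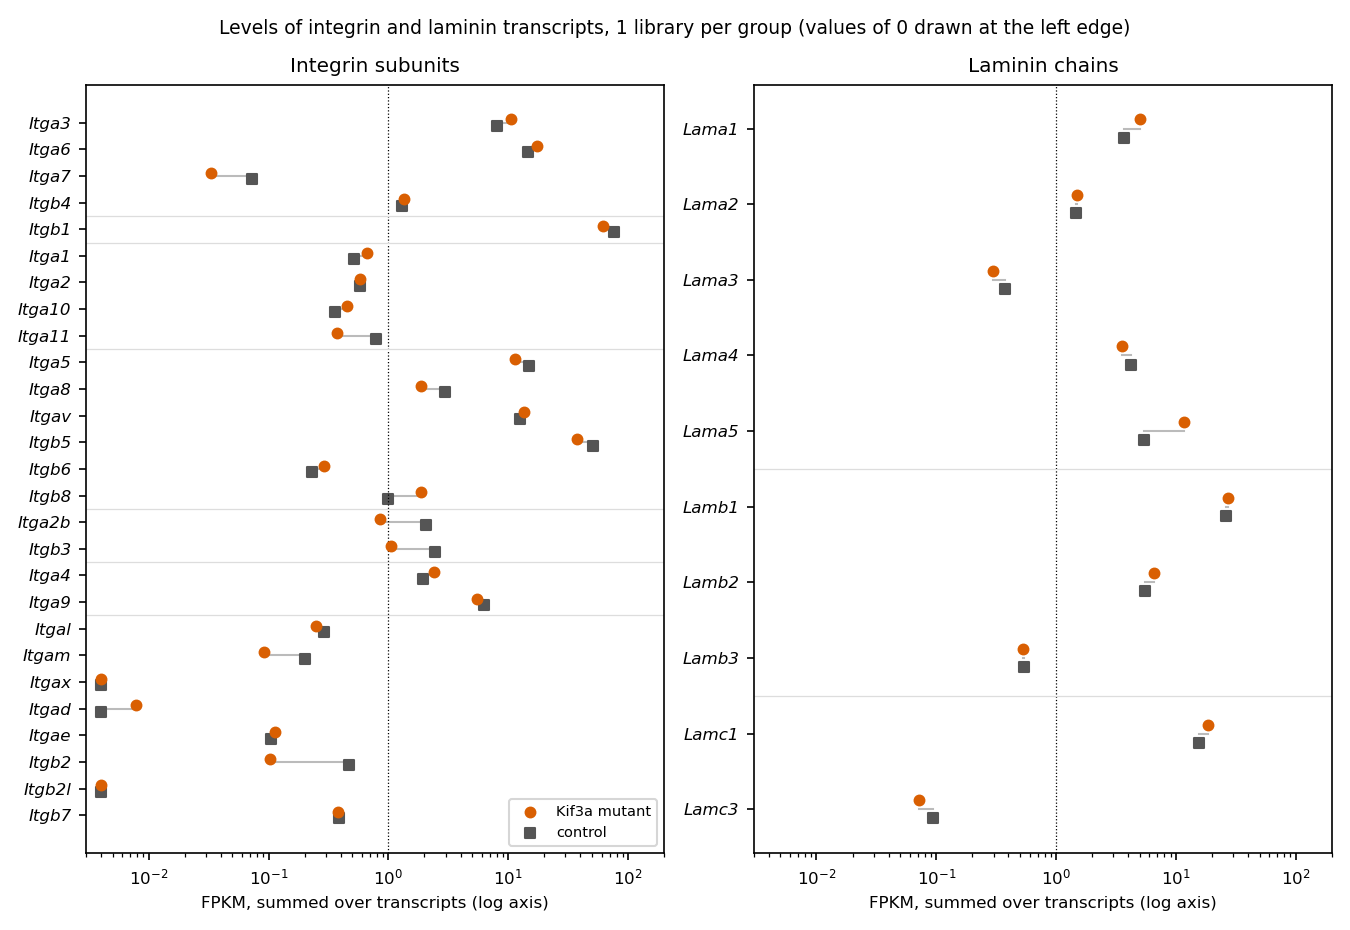
FPKM of the 27 integrin genes and 10 of the 11 laminin genes on a log axis, with orange circles for the Kif3a mutant library and grey squares for the control library. Itgb1 and Itgb5 are the most abundant integrin genes and Lamb1 the most abundant laminin gene in both libraries, and the widest gaps among genes over 1 FPKM are those of Lama5, Itga2b and Itgb3.

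Sequences are shown for the members with the largest differences in level or in transcript form. The first pair are the alternative ends of Itga6, on the plus strand of chromosome 2 (GRCm38), in GENCODE transcripts. One form includes a cassette exon of 130 bases at chr2:71853534-71853663 and stops inside it, and the other skips it and stops in the last exon. The proteins therefore end in different cytoplasmic tails. The first line below is the cassette from its first base to its stop codon (chr2:71853534-71853641, 105 coding bases), and the second is the last exon to the stop codon of the form that skips the cassette (chr2:71855854-71856015, 159 coding bases). Capitals mark the stop codons.
Itga6 with the cassette: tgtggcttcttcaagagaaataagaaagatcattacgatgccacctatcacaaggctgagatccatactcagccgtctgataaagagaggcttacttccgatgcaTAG
Itga6 without the cassette: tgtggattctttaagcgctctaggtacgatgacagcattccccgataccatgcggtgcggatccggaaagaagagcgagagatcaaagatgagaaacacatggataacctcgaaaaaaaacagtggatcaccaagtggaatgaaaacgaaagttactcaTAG

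The second pair are the 250 bases before the annotated start of Lama5 (chr2:180225860-180226109, minus strand) and of Itga2b (chr11:102469884-102470133, minus strand), from RefSeq on GRCm38.p6. Lama5 had the highest log2 ratio of all members, and Itga2b the lowest of those with a window in the table. Capitals mark the GC box GGGCGG in Lama5 and the ETS core GGAAGT in Itga2b, on either strand.
Lama5 window: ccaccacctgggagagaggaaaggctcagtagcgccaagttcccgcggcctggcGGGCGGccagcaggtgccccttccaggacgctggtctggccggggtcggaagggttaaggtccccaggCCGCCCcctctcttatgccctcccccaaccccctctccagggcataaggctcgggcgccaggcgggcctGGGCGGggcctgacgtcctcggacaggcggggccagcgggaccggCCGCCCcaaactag
Itga2b window: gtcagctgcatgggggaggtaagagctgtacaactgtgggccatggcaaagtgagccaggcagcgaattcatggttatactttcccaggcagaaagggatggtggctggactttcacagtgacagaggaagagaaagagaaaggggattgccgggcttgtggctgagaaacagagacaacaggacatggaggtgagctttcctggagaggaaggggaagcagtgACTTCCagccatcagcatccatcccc

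Of the 38 members, 24 had at least 1 window, 27 windows in all. The Lama5 window held 4 GC boxes, and 9 of the 27 windows held at least 1, against 32.7% of all 32851 windows. The Itga2b window held 1 ETS core, found in 9 of the 27 and in 19.7% of all windows. The consensus GLI motif GACCACCCA was in 0 of the 27 and in 0.225% of all windows. A GATA motif (AGATAA or TGATAA or AGATAG or TGATAG) was in 2 of the 27, those of Itgax and Itgb7, and in 26.5% of all windows. Both strands were searched, no motif contains another, and a match says only that these letters are present.

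Of the 4 laminin receptor genes, the alpha subunits Itga3 and Itga6 were higher in the mutant library. Itga3, whose product pairs with that of Itgb1 and anchors epithelia, maps to chromosome 11, positions 95044482 to 95076801. It stood at 10.5 FPKM in the mutant and 8.10 FPKM in the control, a ratio of 1.30 (1.19 to 1.41). Itga6, whose product pairs with Itgb1 or Itgb4, maps to chromosome 2, positions 71787083 to 71856758. Its level was 17.3 FPKM in the mutant and 14.7 FPKM in the control, a ratio of 1.18 (1.09 to 1.27). The Itga6 log2 ratio of 0.22 was -0.20, just under the median gene, in a comparison of its main transcript only. Itgb4, the hemidesmosomal partner of Itga6, stood at 1.34 FPKM in the mutant and 1.29 FPKM in the control, and its interval (0.826 to 1.31) included 1. Itga7, the laminin receptor of differentiated muscle, was near absent at 0.0331 FPKM in the mutant and 0.0723 FPKM in the control, on about 4 and 5 fragments.

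The transcript forms of Itga6 differed more than its summed level. The full-length transcript with the cassette exon, of 4205 bases, stood at 3.87 FPKM in the mutant and 5.15 FPKM in the control. The full-length transcript without it, of 4075 bases, stood at 7.06 FPKM in the mutant and 3.02 FPKM in the control. The cassette form was therefore 35.4% of these full-length transcripts in the mutant and 63.0% in the control. A transcript of 3352 bases, annotated as ending in an extended form of the cassette exon, stood at 1.08 FPKM in the mutant and 0.274 FPKM in the control, and with it counted the shares were 41.2% in the mutant and 64.2% in the control. A further transcript of 2712 bases is annotated as ending before the cassette exon and is counted in none of these shares. It stood at 5.27 FPKM in the mutant and 6.23 FPKM in the control. The authors' software divides fragments shared by several transcripts among them, and fragments over the alternative exons are a small part of the total, so these shares are less certain than the counting intervals of whole genes and have no interval here.

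**Figure D2:**
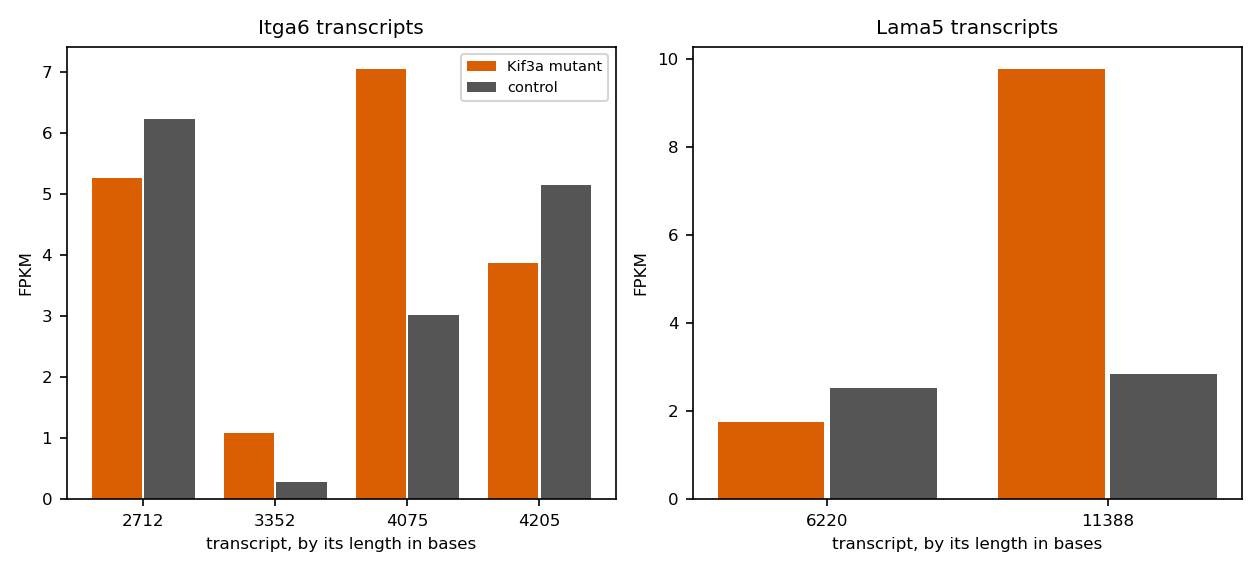
FPKM of each transcript of Itga6 and Lama5 above 0.01 FPKM in at least 1 library, by transcript length, with the Kif3a mutant left of the control in each pair. The Itga6 transcript of 4075 bases is higher in the mutant (7.06 against 3.02 FPKM) while that of 4205 bases is lower (3.87 against 5.15 FPKM), and the Lama5 transcript of 11388 bases stands at 9.79 against 2.85 FPKM.

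Itgb1, the beta subunit shared by most of the alpha subunits here, was the most abundant member. It stood at 61.6 FPKM in the mutant and 76.3 FPKM in the control, a ratio of 0.807 (0.782 to 0.833), and lay below the median gene under each of the 8 alternatives that give a value per gene. Its level exceeded that of every alpha subunit in both libraries. The most abundant alpha subunit was Itga6 in the mutant and Itga5 in the control.

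Among the genes for RGD receptors other than Itga2b and Itgb3, 3 of 6 had a lower FPKM in the mutant and 3 a higher one. With Itga2b and Itgb3, described below, counted as well, 5 of 8 were lower, against 8320 of the 12259 genes over the filter. Itgb6, one of the 8, is under the filter. Itga5, the classical fibronectin receptor of mesenchyme, stood at 11.4 FPKM in the mutant and 14.9 FPKM in the control, 1.31-fold lower (1.22 to 1.41). Itgb5, a partner of Itgav that binds vitronectin, stood at 37.8 FPKM in the mutant and 51.1 FPKM in the control, 1.35-fold lower (1.29 to 1.42). Itga8, a receptor for nephronectin and other RGD proteins, stood at 1.86 FPKM in the mutant and 2.96 FPKM in the control, 1.59-fold lower (1.37 to 1.85). All 3 lay below the median gene under each alternative.

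Itgav, the alpha subunit common to Itgb3, Itgb5, Itgb6 and Itgb8, went the other way from Itgb5, at 13.6 FPKM in the mutant and 12.5 FPKM in the control. Its ratio was 1.10 (1.03 to 1.17). Its transcript has 7054 bases, and its log2 ratio of 0.12 was -0.01 once the length trend described below was removed. Itgb8, which with Itgav binds latent TGF-beta, maps to chromosome 12, positions 119162803 to 119238276. Its level was 1.86 FPKM in the mutant and 0.997 FPKM in the control. That is a ratio of 1.86 (1.41 to 2.47) on about 156 and 79 fragments, the largest ratio of any integrin gene over the filter. Itgb6, the epithelial partner of Itgav, stood at 0.289 FPKM in the mutant and 0.230 FPKM in the control, and its interval (0.732 to 2.22) included 1.

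Among the integrin genes over the filter, the lowest log2 ratios were those of Itga2b and Itgb3, which together encode the fibrinogen receptor of platelets and megakaryocytes. Itga2b, at positions 102453297 to 102469883 of chromosome 11, stood at 0.854 FPKM in the mutant and 2.07 FPKM in the control, 2.43-fold lower (1.86 to 3.19) on about 82 and 183 fragments. Itgb3, at positions 104608000 to 104670471 of the same chromosome, stood at 1.06 FPKM in the mutant and 2.45 FPKM in the control, 2.31-fold lower (1.91 to 2.80) on about 163 and 341 fragments. Itga2b passed the filter only through its higher control value, as Itgb8 did through its higher mutant value. Itga2b and Itgb3 lay below the median gene under each alternative. With a pseudocount of 0.1 both were at least 2-fold lower on the log2 scale, a setting for which the share of all genes was not computed. At the 1 FPKM used here their log2 ratios were -0.73 and -0.74.

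Markers of platelets and megakaryocytes were lower in the same library. All 8 on the list had a lower FPKM in the mutant, with a summed level of 13.7 FPKM in the mutant and 39.6 FPKM in the control. Pf4, a platelet granule chemokine, stood at 8.34 FPKM in the mutant and 24.6 FPKM in the control. All 7 erythroid genes found were at least 2-fold lower, against 1.36% of all genes. The part of these cells in the Itga2b and Itgb3 values was not tested. In such bulk RNA, fewer cells of a type and less RNA per cell cannot be told apart.

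The leukocyte integrins were at the limit of detection, with 0 of 8 over the filter. Itgb2, the common beta subunit of the leukocyte family, stood at 0.103 FPKM in the mutant and 0.466 FPKM in the control, on about 7 and 30 fragments, 4.504-fold lower (1.94 to 12.2). Itgam, which forms the complement receptor of macrophages with Itgb2, stood at 0.0915 FPKM in the mutant and 0.202 FPKM in the control on about 10 and 22 fragments. Itgal, the lymphocyte partner of Itgb2, stood at 0.248 FPKM in the mutant and 0.290 FPKM in the control, and its interval included 1. The same held for Itgb7, at 0.383 FPKM in the mutant and 0.391 FPKM in the control, and for its partner Itgae, at 0.114 FPKM in the mutant and 0.104 FPKM in the control. Itgad had about 1 fragment in the mutant and was listed at 0 in the control. Of 10 macrophage and leukocyte markers, 8 had a lower FPKM in the mutant. Of the 9 markers over the filter, 8 were lower, against 8320 of the 12259 genes over the filter. The summed level of these markers was 24.5 FPKM in the mutant and 37.4 FPKM in the control. Their part in the Itgb2 value was not tested.

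The 4 collagen receptor alpha subunits, which pair with Itgb1, were all below the filter. Itga11, a receptor of mesenchymal cells for fibrillar collagen, was the one whose interval excluded 1. It stood at 0.374 FPKM in the mutant and 0.780 FPKM in the control, 2.08-fold lower (1.47 to 2.996) on about 50 and 96 fragments. Itga1 stood at 0.661 FPKM in the mutant and 0.519 FPKM in the control, Itga2 at 0.575 FPKM in the mutant and 0.578 FPKM in the control, and the cartilage receptor Itga10 at 0.448 FPKM in the mutant and 0.359 FPKM in the control. At this depth a difference of these 3 was not detectable.

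Itga4 and Itga9, which bind the endothelial and muscle counter-receptor Vcam1 and extracellular ligands such as fibronectin or tenascin, differed little. Itga4 stood at 2.40 FPKM in the mutant and 1.93 FPKM in the control, a ratio of 1.24 (1.10 to 1.40). Its transcript of 9832 bases is long, and without the length trend its log2 ratio was -0.10. Itga9 stood at 5.49 FPKM in the mutant and 6.33 FPKM in the control, a ratio of 0.867 (0.796 to 0.945), and with its main transcript alone it was on the other side of the median gene.

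**Figure D3:**
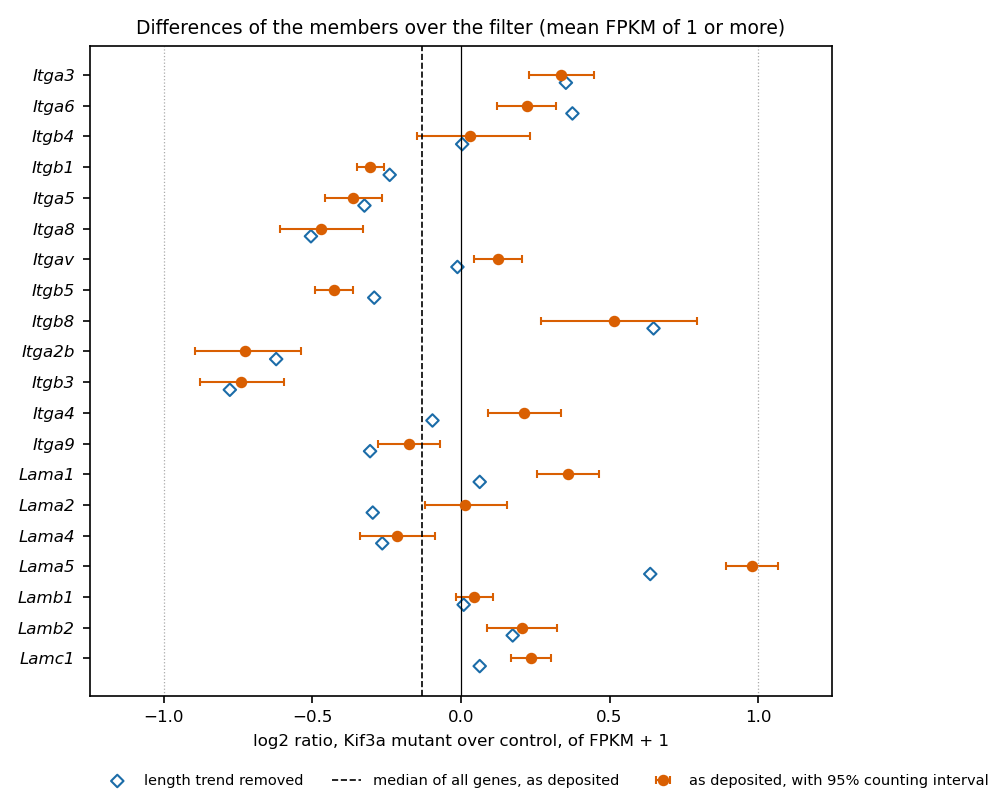
Log2 ratio of FPKM + 1, Kif3a mutant over control, for 20 of the 21 members over the filter. Orange points are the deposited values with the 95% counting interval, and the dashed line is the median of all genes as deposited (-0.13). Blue diamonds are the values with the length trend removed and are read against 0. Lama5 lies farthest to the right at 0.98 and Itgb3 farthest to the left at -0.74.

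Among the laminin alpha chains, Lama5 stood apart. Lama5 encodes the main alpha chain of epithelial basement membranes in the later embryo, and lies on chromosome 2 from 180176373 to 180225859. It stood at 11.54 FPKM in the mutant and 5.37 FPKM in the control, a ratio of 2.15 (2.01 to 2.30), and its log2 ratio of 0.98 was reached by 101 of the 12259 genes. It was the highest alpha chain in both libraries.

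The table holds a Lama5 transcript of 11388 bases and one of 6220 bases that shares its 3' end. The long one stood at 9.79 FPKM in the mutant and 2.85 FPKM in the control, and the short one at 1.75 FPKM in the mutant and 2.51 FPKM in the control. The long one was thus 84.9% of the sum in the mutant and 53.1% in the control. As for Itga6, these shares depend on how shared fragments were divided and have no interval, and the counting interval of the gene does not cover that division. Lama5 had about 3321 fragments in the mutant and 1225 in the control. With fragment numbers in place of FPKM its log2 ratio was 1.30. With the length trend removed, the log2 ratio of Lama5 was 0.64, a value reached by 370 genes. Across alternatives it ranged between 0.64 and 1.49 and always lay above the median gene.

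Lama1, the alpha chain of the earliest embryonic basement membranes, stood at 5.02 FPKM in the mutant and 3.70 FPKM in the control, a ratio of 1.36 (1.245 to 1.48). Its transcript of 9518 bases again fell where long genes were higher, and its log2 ratio of 0.36 was 0.06 without the length trend. Lama2, the alpha chain of muscle and nerve sheaths, stood at 1.49 FPKM in the mutant and 1.47 FPKM in the control, and its log2 ratio of 0.01 was -0.30 without the trend. Lama4, typical of vessels and mesenchyme, stood at 3.51 FPKM in the mutant and 4.24 FPKM in the control, 1.21-fold lower (1.08 to 1.35). As deposited, it was the only laminin gene over the filter below the median gene, by 0.08 on the log2 scale. All 10 endothelial markers also had a lower FPKM in the mutant, 68.8 FPKM summed in the mutant against 103 FPKM in the control, and their part in the Lama4 value was not tested.

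Lamb1, the most abundant beta chain, stood at 27.0 FPKM in the mutant and 26.1 FPKM in the control, and its interval (0.989 to 1.08) included 1. Its alternative Lamb2 stood at 6.55 FPKM in the mutant and 5.55 FPKM in the control, a ratio of 1.18 (1.07 to 1.30). Lamc1, the gamma chain shared by most trimers, stood at 18.4 FPKM in the mutant and 15.5 FPKM in the control, a ratio of 1.19 (1.13 to 1.248), and its log2 ratio of 0.24 was 0.06 without the length trend. Summed per class, alpha chains came to 21.9 FPKM in the mutant and 15.1 FPKM in the control, and beta chains to 34.0 FPKM in the mutant and 32.2 FPKM in the control.

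Lama3 and Lamb3 encode chains of the laminin that binds hemidesmosomes in skin and oral epithelium, and both were below the filter. Lamb3 stood at 0.528 FPKM in the mutant and 0.539 FPKM in the control, and Lama3 at 0.298 FPKM in the mutant and 0.372 FPKM in the control, both with intervals that included 1. Lamc3, a gamma chain of nerve and other tissues, stood at 0.0721 FPKM in the mutant and 0.0935 FPKM in the control, on about 10 and 14 fragments, and its interval (0.307 to 1.87) also included 1.

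Markers of oral epithelium were higher in the mutant library. Of 12 markers 10 had a higher FPKM, the sum being 223 FPKM in the mutant and 187 FPKM in the control, and their median log2 ratio was 0.35. Cdh1, the epithelial cadherin, stood at 16.1 FPKM in the mutant and 13.2 FPKM in the control. The basal keratin genes Krt5 and Krt14 went the other way. Krt5 stood at 8.81 FPKM in the mutant and 15.2 FPKM in the control, and Krt14 at 13.1 FPKM in the mutant and 15.6 FPKM in the control. The part of the epithelium in the values of Itga3, Itga6, Itgb8 and Lama5 was not tested. Other members named above as epithelial or hemidesmosomal, Itgb4, Itgb6, Lama3 and Lamb3, had intervals that included 1. Each of these intervals also included 1.195, the ratio of the summed epithelial markers, so they cannot tell the 2 values apart. The 8 markers of neural crest mesenchyme, in which Cre acts, came to 557 FPKM in the mutant and 582 FPKM in the control. Of these markers 4 were higher and 4 lower, where 3939 of the 12259 genes over the filter were higher and 8320 lower.

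Transcript length moved with the log2 ratio over the whole table. The Spearman correlation across 12259 genes, which are not independent replicates, was 0.407, and across the 21 members over the filter it was 0.201. The median log2 ratio was -0.17 in the class of 2000 to 3000 bases and 0.28 in that of 8000 to 12000 bases. The main transcripts of Lama1, Lama2, Lama5 and Itga4 are in the longer class. With the trend removed, the laminin median was 0.06 and the integrin median -0.24, the corrected log2 ratio being 0.64 for Lama5, 0.65 for Itgb8, 0.37 for Itga6 and 0.35 for Itga3. It was -0.50 for Itga8, -0.62 for Itga2b, -0.78 for Itgb3, -0.33 for Itga5 and -0.31 for Itga9. Relative to the median gene, the deposited values were 1.11 for Lama5, 0.65 for Itgb8, 0.35 for Itga6 and 0.47 for Itga3. They were -0.34 for Itga8, -0.60 for Itga2b, -0.61 for Itgb3, -0.23 for Itga5 and -0.045 for Itga9. With the trend removed, Lama5 and Itga3 came nearer to the median gene, Itgb8 hardly moved and the other genes named here lay farther from it. Before subtraction the deposited values were 0.22 for Itga6 and -0.18 for Itga9. The corrected Itga6 value takes the length of its most abundant transcript, which has 2712 bases. The cause of the length trend was not tested.

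**Figure D4:**
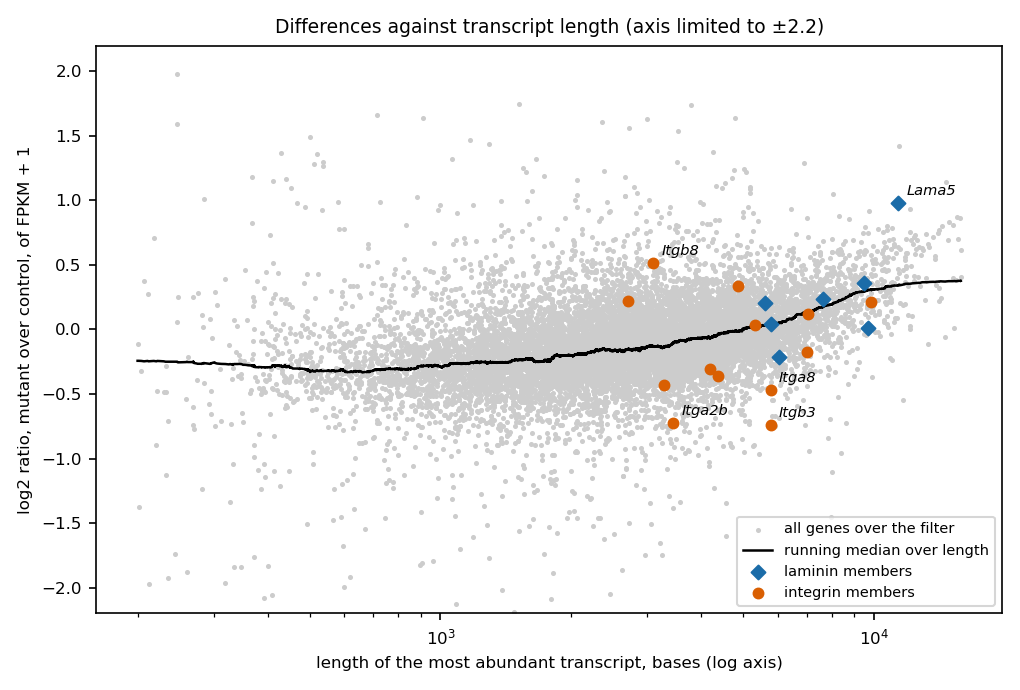
Log2 ratio of FPKM + 1, mutant over control, against the length of each gene's most abundant transcript on a log axis, for genes over the filter within the plotted lengths (grey), with the running median over length (line), laminin members (blue diamonds) and integrin members (orange circles). The running median climbs with length, Lama5 lies above it by 0.64 and Itgb3 below it by 0.78.

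The partners of these receptors were described by lists. Of 20 ligands of integrins outside the laminins, 15 passed the filter. Of these 15, 8 were at least 1.5-fold lower, against 5.57% of all genes, and 2 of them at least 2-fold lower, against 1.36%. At least 1.5-fold higher were 0, against 2.76%. Their median log2 ratio was -0.64 against -0.13 for all genes. This median was -0.41 with a filter of 5 FPKM, -0.38 with a pseudocount of 5 and -0.43 with the length trend removed. Relative to the median gene of each setting, it was -0.51 as deposited and -0.26 with that filter. It was -0.29 with that pseudocount and -0.435 with the trend removed. The list holds Vcam1 and Icam2, which vessels also express, and the endothelial markers were lower in the same library, as given for Lama4. Skeletal muscle precursor markers were lower too, 9 of 9 with a summed level of 11.7 FPKM in the mutant and 42.3 FPKM in the control. The part of these cells in the ligand values was not tested. Postn, periostin, which binds Itgav receptors, stood at 7.69 FPKM in the mutant and 26.3 FPKM in the control. Tgfbi, a matrix adaptor with an RGD motif, stood at 16.6 FPKM in the mutant and 34.5 FPKM in the control, and Tnc, tenascin-C, a ligand of Itga9, at 1.82 FPKM in the mutant and 4.41 FPKM in the control. Fn1, fibronectin, the most abundant ligand and the main one of Itga5, went the other way at 55.7 FPKM in the mutant and 39.4 FPKM in the control, a ratio of 1.41 (1.37 to 1.45), and its log2 ratio of 0.49 was 0.27 without the length trend.

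Of 21 basement membrane genes that work with laminin, 18 passed the filter with a median log2 ratio of 0.07. At least 1.5-fold higher were 3, against 2.76% of all genes, and at least 1.5-fold lower were 2, against 5.57%. Smoc2, a calcium-binding matrix protein, was 2.63-fold lower at 3.94 FPKM in the mutant and 10.4 FPKM in the control. Sparc, a collagen-binding protein with the highest mean FPKM of the list over both libraries, stood at 39.3 FPKM in the mutant and 68.4 FPKM in the control. Fras1, which holds embryonic epithelia to the mesenchyme, stood at 6.07 FPKM in the mutant and 2.89 FPKM in the control. Its transcript has 15848 bases, and its log2 ratio of 0.86 was 0.48 without the length trend.

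Of 30 adaptor and focal adhesion genes, which couple integrins to actin, 27 passed the filter. Their median log2 ratio was -0.25. Relative to the median gene it was -0.12 as deposited and -0.13 with the length trend removed. At least 1.5-fold lower was 1, against 5.57% of all genes, and 0 were 1.5-fold higher, against 2.76%. The 3 with the largest log2 ratios were lower. Tgfb1i1, a paxillin relative, stood at 3.22 FPKM in the mutant and 5.48 FPKM in the control. Zyx, zyxin, stood at 24.7 FPKM in the mutant and 36.9 FPKM in the control, and the parvin gene Parva at 25.2 FPKM in the mutant and 36.2 FPKM in the control. The most abundant, the actin crosslinker gene Flna, stood at 103 FPKM in the mutant and 90.9 FPKM in the control.

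The 4 hemidesmosome partners of Itgb4 had a median log2 ratio of 0.16, but one of -0.22, below the median gene, when the most abundant transcript of each gene was used alone. Plec, the plectin linker to keratin filaments, stood at 5.08 FPKM in the mutant and 2.76 FPKM in the control, and Dst, a related linker, at 13.8 FPKM in the mutant and 9.90 FPKM in the control. The log2 ratio of Plec, with a transcript of 14856 bases, was 0.69 as deposited and 0.32 without the length trend. Col17a1, the transmembrane collagen of the structure, stood at 1.58 FPKM in the mutant and 1.88 FPKM in the control. The tetraspanin gene Cd151, the most abundant, stood at 23.1 FPKM in the mutant and 25.1 FPKM in the control.

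**Figure D5:**
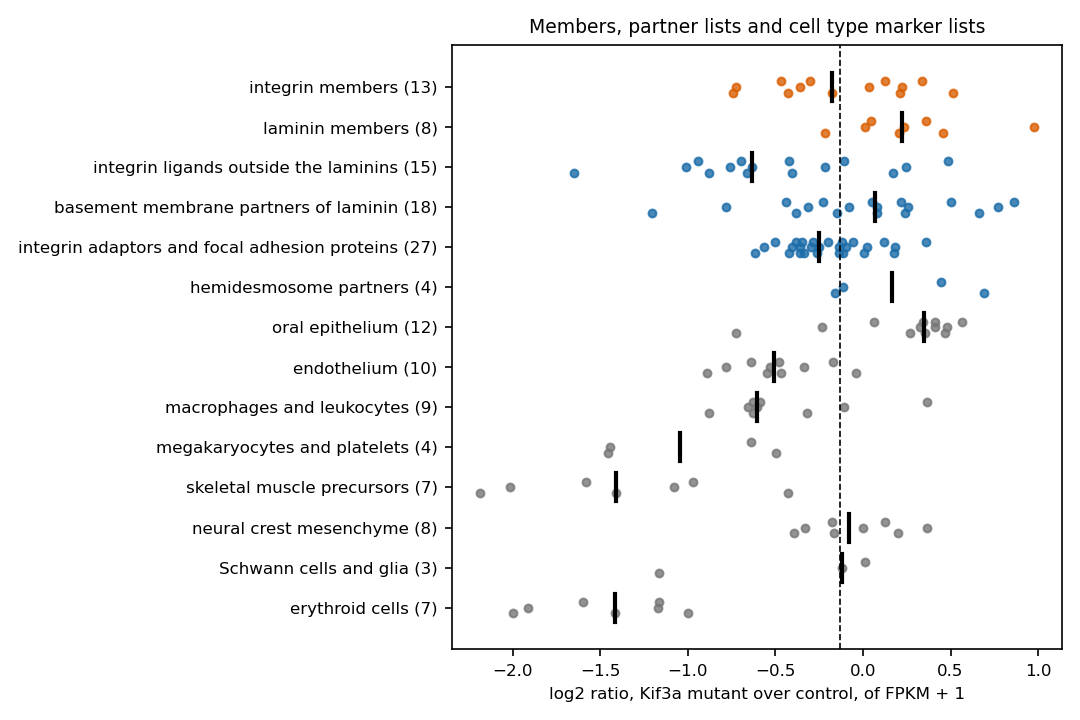
Log2 ratio of FPKM + 1, mutant over control, of each gene over the filter in the member groups (orange), partner lists (blue) and cell type marker lists (grey), with the number of genes in parentheses, a black bar at each median and a dashed line at the median of all genes. The laminin members have a median of 0.22 and the integrin members of -0.18, and among the marker lists oral epithelium has the highest median (0.35) and erythroid cells and skeletal muscle precursors the lowest (-1.42 and -1.41).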

How the data were processed

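Pooled prominences gave the total RNA, and libraries followed standard Illumina procedures, per the labels' protocols. The authors deposited 1 table per library with an FPKM value and a coverage signal for each of 59120 transcripts, per the file headers. The table names mention Cufflinks. The aligner, its version and strandedness were not given in the sources used here. Per the submitters' processing notes the build was mm9, but after 1 was added to the deposited starts, 26 of the 38 members had a start, and 26 an end, identical to one in GENCODE M21 on GRCm38, so coordinates are given 1-based on GRCm38.

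From either library 65 lines displaced by spaces in gene names were left out, and none of the 112 member transcripts carried a status other than OK. FPKM was summed per symbol. Fragments were approximated as deposited coverage times length over the yield of 1 fragment, about 153 bases in the mutant and 156 in the control. The length trend is a running median of the log2 ratio over 501 genes ranked by length. Analyses used Python 3.11.15, numpy 2.4.6, pandas 2.3.3, scipy 1.17.1 and matplotlib 3.10.9, and were tested on simulated data.

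All members were named but 1, which is not reported here and stays in the counts and medians. Of each partner list the 3 largest log2 ratios and the most abundant gene were named; other genes were chosen after their values were seen. The members and lists were chosen with earlier results of these data known. Replicates were not available, so no test was made. The alternatives were other pseudocounts, filters, scalings, length correction, single transcripts and fragment numbers. The last, and leaving out blood cell integrins, were chosen after seeing the data.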

Additional observations from a re-analysis of the deposited data

How the results depend on the processing

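No paired analysis was possible because each group holds 1 library, and for the same reason no library could be left out. The median log2 ratio of the integrin genes, -0.18 as reported, was -0.009 with no filter, -0.05 (-0.045) after centring on the median gene, -0.06 (-0.059) with scaling to the 75th percentile, 0.05 (0.052) with TPM-like scaling over transcripts of 200 bases or more, -0.05 (-0.049) with fragment numbers and 0.03 (0.032) without the leukocyte and platelet subunits. The laminin median, 0.22 as reported, was 0.04 (0.045) with no filter, 0.35 after centring, 0.34 with 75th percentile scaling, 0.46 with TPM-like scaling, 0.063 with the length trend removed and 0.32 with fragment numbers. The median of all genes was itself 0.10 with TPM-like scaling, -0.01 with fragment numbers and -0.13 as deposited. It was -0.05 with no filter, -0.01 with 75th percentile scaling, and 0 after centring and with the length trend removed. At 2-fold, 2 integrin genes were lower and 1 laminin gene higher with a pseudocount of 0.1, and 1 laminin gene was higher after centring, with both scalings, with single transcripts and with fragment numbers. At 1.5-fold, 1 integrin gene was higher with a pseudocount of 0.1, after centring, with both scalings and with the length trend removed. At 1.5-fold, 0 integrin genes were lower, against 2, with a pseudocount of 5, a filter of 5 FPKM or TPM-like scaling. At 1.5-fold, 2 laminin genes were higher, against 1, with a pseudocount of 0.1 and with TPM-like scaling. The share of all genes past these folds was not computed under the alternatives, so these counts have no background to be read against. Relative to the median gene, Itga6, Itgb4 and Itga9 changed side with the most abundant transcript alone and Itgav, Itga4 and Lama2 with the length trend removed; the other 15 members over the filter kept their side under all 8 alternatives. Depth limits the 17 members below the filter.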
